A study of Mus musculus with 8 samples.

Results

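The regions described here are the open chromatin sites of mTEC-I, a sorted population of medullary thymic epithelial cells, that were called in both of its ATAC-seq libraries. ATAC-seq uses a transposase that cuts accessible DNA, so that a pile of cuts (a peak, measured in tags) marks an open site. The sites were chosen from the peak calls themselves: a peak of replicate 1 was kept when it overlapped a replicate 2 peak by at least 1 bp. This gave 32200 replicated peaks of 44288 in replicate 1 (72.7%), which met 31965 of the 39040 peaks of replicate 2 (81.9%). Because the calls chose the sites, their signal is described below and not tested.

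All cells came from thymus of C57BL/6 mice, digested with enzymes, enriched on a Percoll gradient and sorted as CD45 negative and Epcam positive. mTEC-I was further gated as MHCII low and Itgb4 positive, and mTEC-II as MHCII high. mTEC-III was taken as Ly6D positive, and mTEC-IV as L1cam positive cells that were MHCII low and lacked Itgb4. The 4 populations had 2 libraries each, and nothing in the labels says whether the replicates came from separate animals. The mTEC-I libraries held 8574918 and 7033324 tags. The authors scaled each library to 10000000 tags, here called normalized tags, so that 1 tag was worth 1.17 normalized tags in replicate 1 and 1.42 in replicate 2. The 6 libraries of the other populations held 3606436 to 10374623 tags.

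Medullary thymic epithelial cells display self antigens to developing T cells, and their growth depends on signals of the TNF receptor family that act through NF-kB. The immature, MHCII low compartment resembles basal cells of stratified epithelia: it makes the keratins K5 and K14 and adheres to basement membrane through laminin receptors such as the integrin of which Itgb4 is the beta chain. Active promoters in vertebrates are commonly rich in CG dinucleotides and hold short motifs for general factors, among them the GC box of Sp and KLF proteins and the CCAAT box of NF-Y.

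The promoters that carried the results below are shown first. They belong to the marker genes Krt5, Lamb3 and Pdpn, to Krt14 (the partner keratin of Krt5), to the MHC class II gene H2-Aa, and to 3 genes among the strongest promoter sites, Hjurp, Tarbp2 and Atp5g1. Each line gives the 150 bases before the start, 5′ to 3′ in the direction of the gene, from RefSeq on GRCm38.p6, a later build than the mm9 of the peaks. Capitals mark matches to any of the 11 motifs searched on both strands, overlapping matches included.
Krt5 (chr15:101712906-101713055, minus strand): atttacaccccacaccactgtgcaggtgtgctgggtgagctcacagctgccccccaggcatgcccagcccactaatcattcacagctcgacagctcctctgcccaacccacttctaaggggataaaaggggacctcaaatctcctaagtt
Krt14 (chr11:100206031-100206180, minus strand): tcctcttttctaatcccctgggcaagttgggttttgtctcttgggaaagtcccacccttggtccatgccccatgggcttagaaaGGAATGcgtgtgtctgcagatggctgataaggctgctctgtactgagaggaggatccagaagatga
Lamb3, upstream start (chr1:193301844-193301993, plus strand): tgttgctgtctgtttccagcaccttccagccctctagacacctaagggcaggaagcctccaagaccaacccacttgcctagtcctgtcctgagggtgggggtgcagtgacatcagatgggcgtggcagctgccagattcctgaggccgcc
Lamb3, downstream start (chr1:193302093-193302242, plus strand): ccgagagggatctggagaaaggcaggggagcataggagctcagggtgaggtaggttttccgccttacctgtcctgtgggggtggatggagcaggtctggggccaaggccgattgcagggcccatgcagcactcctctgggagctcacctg
Pdpn (chr4:143299565-143299714, minus strand): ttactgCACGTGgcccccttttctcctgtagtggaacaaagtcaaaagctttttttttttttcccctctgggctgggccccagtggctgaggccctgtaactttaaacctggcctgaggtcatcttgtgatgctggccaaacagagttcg
H2-Aa (chr17:34287824-34287973, minus strand): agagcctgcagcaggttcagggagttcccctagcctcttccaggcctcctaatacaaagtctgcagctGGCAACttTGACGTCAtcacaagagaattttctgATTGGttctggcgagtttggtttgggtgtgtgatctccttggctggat
Hjurp (chr1:88277580-88277729, minus strand): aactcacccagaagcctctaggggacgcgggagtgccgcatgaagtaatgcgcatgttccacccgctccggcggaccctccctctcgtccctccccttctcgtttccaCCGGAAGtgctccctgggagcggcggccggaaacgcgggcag
Tarbp2 (chr15:102518042-102518191, plus strand): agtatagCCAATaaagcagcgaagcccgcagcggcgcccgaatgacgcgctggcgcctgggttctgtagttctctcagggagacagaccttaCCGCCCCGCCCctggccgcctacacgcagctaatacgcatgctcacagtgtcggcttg
Atp5g1 (chr11:96075632-96075781, minus strand): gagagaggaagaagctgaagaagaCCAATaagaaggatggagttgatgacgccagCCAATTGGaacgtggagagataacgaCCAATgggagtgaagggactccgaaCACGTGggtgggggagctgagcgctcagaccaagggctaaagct

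Distances to a start are those of the merged peak in the authors’ table that a replicated peak overlapped, so its own centre can differ. By them the Krt5 site lay 37 bp before its start and the Krt14 site 97 bp. The H2-Aa site lay 114 bp, the Hjurp site 55 bp and the Tarbp2 site 67 bp before the start, all inside the lengths printed. The Atp5g1 site lay farther out, 190 bp before the start. In H2-Aa the capitals mark 3 motifs in a row: an X-box site, a cyclic AMP response element (CRE) and a CCAAT box, the first and last of them on the other strand. MHC class II promoters are known for an X box followed by a Y box, and the Y box is a CCAAT box. The Atp5g1 stretch held 4 CCAAT matches. The Krt5 and both Lamb3 stretches held no match to the 11 motifs.

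The signal of the replicated peaks was similar in the 2 libraries. The median was 19.2 normalized tags in replicate 1 and 20.6 in replicate 2, with interquartile ranges of 12.8 to 32.1 and 14.2 to 34.8. Across peaks, Pearson's r of the log2 values was 0.92 and Spearman's rho was 0.901. These are descriptions over 32200 sites that share 2 libraries. Replicate 2 was a median 1.09-fold above replicate 1. After that shift 95% of the peaks differed by less than 1.61-fold, and 252 peaks differed by more than 2-fold before it. The peaks of replicate 1 that were not replicated were lower, with a median of 10.5, and the replicated share ran from 41.6% in the weakest to 94.5% in the strongest of 4 equal groups of replicate 1 peaks by signal. At the edge of the rule, 409 kept peaks overlapped by 10 bp or less and had a median of 18.7, while 370 peaks left out by a gap of 10 bp or less had a median of 16.3. In bulk cells, more cells with an open site and more cuts per open cell cannot be told apart.

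**Figure D1:**
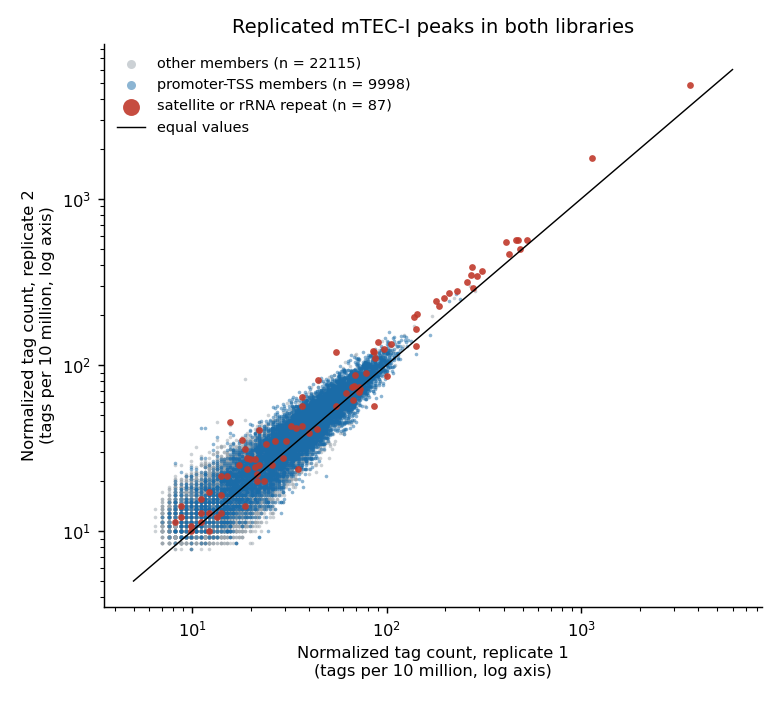
Each point is 1 of the 32200 replicated mTEC-I peaks, with the normalized tag count of replicate 1 on the horizontal and of replicate 2 on the vertical axis (both log axes). The 87 peaks labelled as satellite or rRNA repeats (red) reach 3637.4 and 4828.4, and the 9998 promoter peaks (blue) end at 238.5 and 267.3.

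Promoters held the strongest part of the landscape. Of the replicated peaks, 31.0% were annotated as promoter-TSS by the authors' table, 29.0% as intronic and 33.9% as intergenic. In the merged table of all 74090 peaks of the 8 libraries these shares were 18.3%, 37.6% and 37.3%. In the full lists of mTEC-I replicates 1 and 2, before the overlap rule, promoter-TSS held 25.9% and 27.7%. The rule kept more of the strong peaks than of the weak ones. Promoter peaks had a median of 35.0 normalized tags in replicate 1 and 38.4 in replicate 2, against 15.7 and 16.4 for introns and 15.7 and 17.1 between genes. They carried 46.8% and 47.1% of the summed signal of the replicated peaks. By distance, 35.9% of the peaks lay within 1 kb of a transcription start site (TSS), 50.9% within 10 kb, and 10.6% more than 100 kb away. Median signal in replicate 1 was 33.2 within 1 kb, 17.5 from 1 to 10 kb and 14 beyond 100 kb, and replicate 2 gave 36.3, 18.5 and 15.6. By the distances of their merged peaks, the promoter peaks lay a median 44 bp before the TSS, with 73.8% on its upstream side. Ranked by mean signal, 83.6% of the strongest 1000 peaks and 3.7% of the weakest 1000 were promoter peaks.

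**Figure D2:**
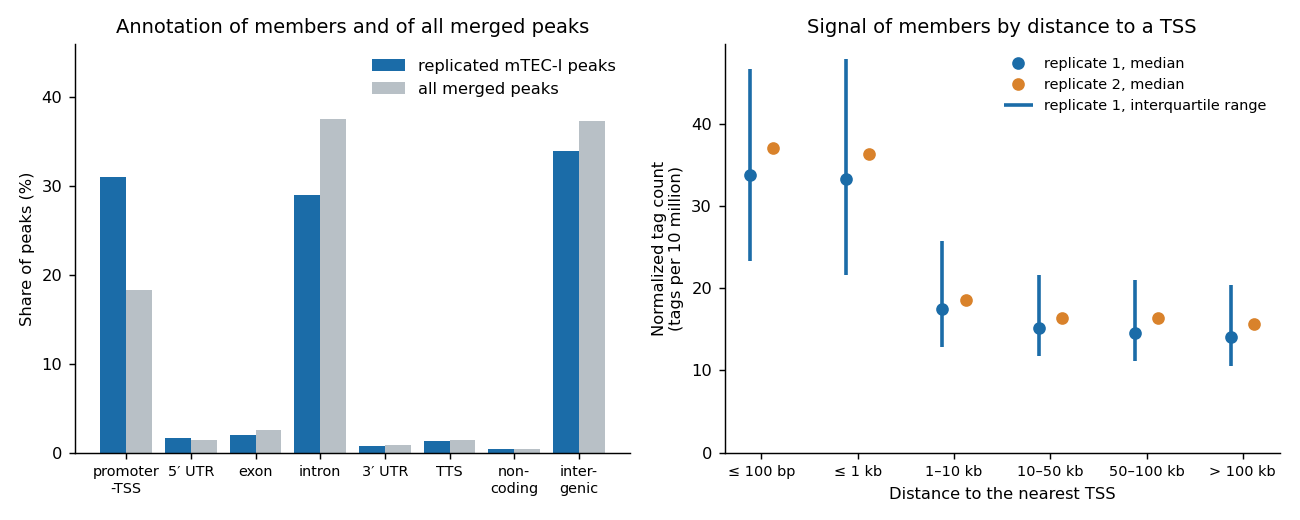
Left, bars give the share of peaks (%) in each annotation class, for the replicated mTEC-I peaks (blue) and all merged peaks (grey): promoter-TSS holds 31.0% and 18.3%. Right, points give the median normalized tag count of each library by distance to the nearest TSS and bars the interquartile range in replicate 1 (the bin up to 1 kb contains the bin up to 100 bp); medians are 33.2 and 36.3 up to 1 kb and 14 and 15.6 beyond 100 kb.

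The very highest values stood on repeated DNA. The strongest replicated peak lay at chr2:98507092-98507218 (mm9), in a GSAT satellite, the repeat of mouse pericentromeres, with 3637.4 normalized tags in replicate 1 and 4828.4 in replicate 2. The next, also in a GSAT satellite, lay at chr9:35112976-35113102 and had 1131.8 and 1761.6. Of the 15 strongest peaks, 9 were annotated as satellite and 5 as copies of large-subunit rRNA, the latter nearest to Axin2, Pex2, Filip1l, Cdk8 and Txndc11. The fifteenth, with 268.8 and 297.2, lay in a 3′ UTR 16707 bp before the start of Limd1. All 10 of the strongest peaks more than 10 kb from a TSS were satellite or rRNA copies. The sites were also high outside mTEC-I: in the merged table the strongest one had a signal of 2009 to 3675 in the 6 other libraries, beside 2563 and 3032 in mTEC-I. Reads from many copies can pile up on such loci, and how the authors placed reads with several matches is not given in the sources used here. In all, 87 replicated peaks (0.27%, beside 0.17% of merged peaks) were labelled as satellite or rRNA repeats and held 1.61% and 1.86% of the summed signal. Sites labelled as a CpG island, promoter, exon, UTR or TTS carry no repeat label, so further copies can be missed. LTR elements held 868 peaks (2.70%, beside 3.89% of merged peaks), LINEs 450 (1.40% and 2.43%) and SINEs 433 (1.34% and 2.32%). Their medians in replicate 1 were 14.6, 14.6 and 14.

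The next loci are those not labelled as satellite or rRNA repeats, a choice made after these values were seen. The highest promoter of a protein-coding gene was that of Hjurp, the chaperone that loads the centromeric histone CENP-A, with 208.2 in replicate 1 and 241.7 in replicate 2 at chr1:90174120-90174246. The promoter peak of Hspa8, a constitutive heat shock protein, had 126.5 and 147.9. Tarbp2, a partner of Dicer, had 128.9 and 141.5, and Osbp, which binds oxysterols, had 119.0 and 149.3. Hjurp lay above the other 3 in both libraries, and those 3 overlapped one another. Near them came, among others, Mms19 (119.0 and 141.5), of iron-sulfur protein assembly, the clathrin adaptor subunit Ap2a1 (103.2 and 157.1), the Wnt antagonist Dact3 (141.1 and 116.6), Fem1c (127.7 and 129.4), a substrate receptor of a ubiquitin ligase, and Atp5g1 (116.0 and 136.5), a subunit of ATP synthase. The values of these 5 overlapped one another. Of all replicated peaks, satellite and rRNA copies included, only 120 exceeded 100 normalized tags in both libraries.

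Sites with another label, such as a CpG island or 3′ UTR, were not checked for repeat copies. More than 10 kb from a start and without a satellite or rRNA label, 3 sites were at or above the Hjurp promoter. They were the Limd1 site given above, a CpG island 64950 bp before Cr2 (chr1:197067756-197067882), with 286.3 and 278.7, and a CpG island 26329 bp beyond the start of Rpp21 (chr17:36368362-36368488), with 222.7 and 251.7. These were high in every population: the merged table gave 295 to 1145 for the Cr2 site and 174 to 954 for the Rpp21 site in the 6 other libraries. The next distal sites were nearest Gtpbp4 (172.0 and 198.3), Gm21119 (122.5 and 151.4) and Gm7102 (120.7 and 130.1). A site 32557 bp before Gad2, inside an intron of another gene, had 94.5 and 138.6, and 1 site 52793 bp before Wnt7b, a Wnt ligand gene, had 107.3 and 121.6. The other sites with a mean above 100 were nearest Ly6c2 (110.8 and 100.2), Fbxo46 (102 and 103.8), Arhgap5 (88.0 and 114.5), Pisd-ps3 (93.3 and 107.3) and Scd3 (100.9 and 99.5). A lower one, chosen for its values elsewhere, lay at chr14:78048413-78048539, in an intron and 141787 bp from its nearest start, Gm6994, with 88.6 and 93.8. In the merged table it had 102.0 and 102.4 in the mTEC-I libraries and 0.83 to 9.70 in the 6 others.

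The genes that mark mTEC-I carried replicated peaks at or near their starts. Krt5, the type II keratin of basal epithelia, had 3. The strongest was 1022 bp before the start (chr15:101544293-101544419), with 44.3 in replicate 1 and 42.7 in replicate 2, from 38 and 30 tags. The peak at the start itself had 26.8 and 34.8, and one 8617 bp downstream had 15.2 and 13.5. The upstream and downstream peaks differed by more than their 2 libraries did. Krt14 had 30.9 and 30.6 at 97 bp before its start and 12.2 and 21.3 at 5763 bp beyond it.

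Itgb4, the sort marker and beta chain of the laminin-binding hemidesmosome integrin, had its strongest peak in the first exon, 254 bp past the start (chr11:115836170-115836296), with 51.3 and 38.4. A second, 16524 bp upstream in an intron of a neighbouring gene, had 28.0 and 28.4, and another 4336 bp upstream had 12.8 and 17.1. Lamb3, a chain of the basement membrane laminin that this integrin binds, had 2 promoter peaks of like height. The one 556 bp before the start had 28.0 and 27, and the one 54 bp before it had 21.6 and 22. Its 2 intronic peaks, 13916 and 28159 bp past the start, had 11.7 and 11.4, and 9.91 and 10.7. They lay below the lower quartiles of all replicated peaks, 12.8 and 14.2. In Pdpn, which encodes the membrane glycoprotein podoplanin, the strongest peak lay inside the gene. The peak 10510 bp inside its first intron had 30.3 and 35.5, and the promoter peak, 12 bp before the start, had 13.4 and 21.3. Another 3 intronic peaks had 9.91 to 17.5 in replicate 1 and 11.4 to 19.9 in replicate 2.

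**Figure D3:**
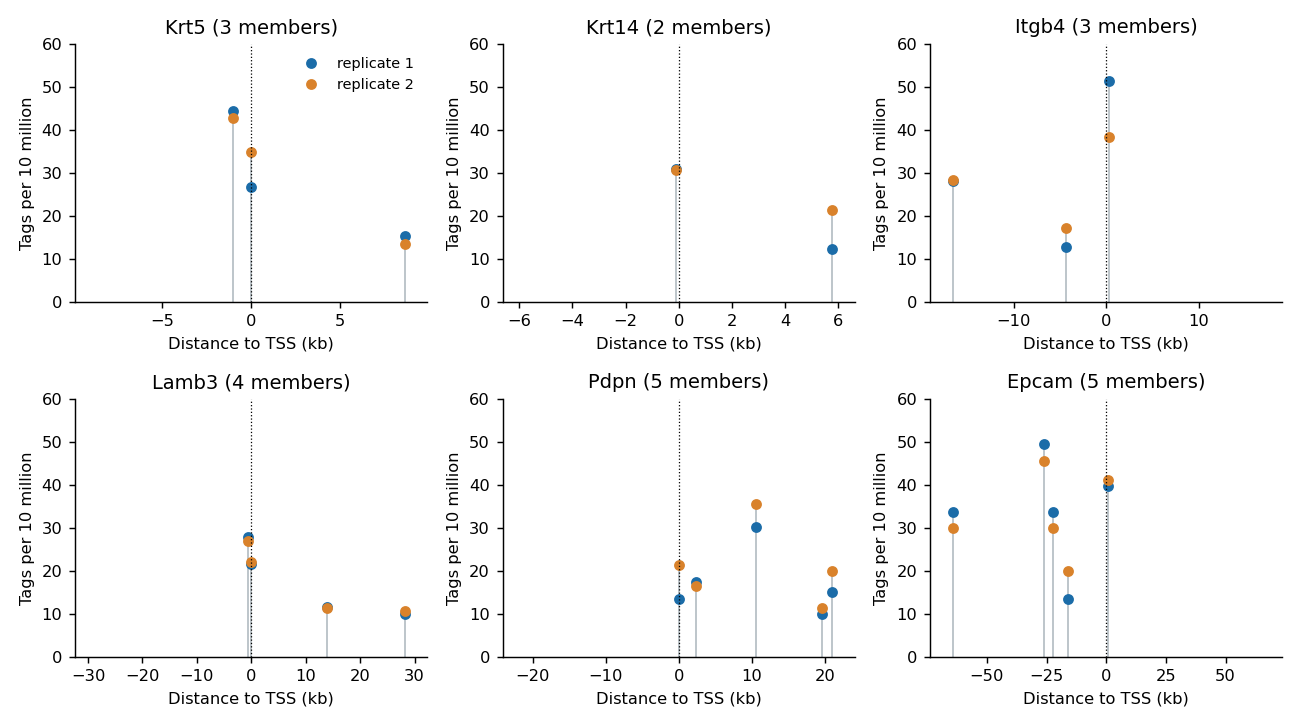
Each panel plots the replicated mTEC-I peaks assigned to a gene by distance to its TSS (kb, horizontal; dotted line, TSS) against normalized tag count (vertical), with 1 point per library. Krt5, Krt14, Itgb4 and Lamb3 have their strongest peak at most 1022 bp from the start, Pdpn has it 10510 bp inside the gene and Epcam 26183 bp before it.

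The other genes of the sort gates gave the following values. Epcam, the positive gate, had 5 replicated peaks, with 39.7 and 41.2 at 636 bp past the start and 49.6 and 45.5 at 26183 bp before it. Both H2-Aa and H2-Ab1, which encode class II chains, had 4, although the gate took MHCII low cells. The H2-Aa promoter had 48.4 and 41.2, a site 8482 bp before it had 69.4 and 75.4, and the H2-Ab1 promoter had 58.9 and 54.0. Ly6d, the gate of mTEC-III, had 1 peak 2650 bp from its start, with 25.1 and 32.0. Ptprc, which encodes CD45, and L1cam, the gate of mTEC-IV, had none.

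Genes of set lists were next counted as open when a replicated peak assigned to them lay within 1 kb or 10 kb of a TSS. The authors' table gives each peak to its nearest start only, so a gene beside a closer neighbour can be missed. Among 9 keratins of basal and simple epithelia, 6 genes had a peak within 1 kb, against a background of 45.8% of 21900 protein-coding genes, and the same 6 within 10 kb, against 52.3%. Beside Krt5 and Krt14 these were Krt17 (39.1 in each library at the start) and Krt8, Krt18 and Krt7, which are keratins of simple epithelia. Krt15, a basal keratin, Krt19 and Krt6a had none. Of 16 genes of basement membrane adhesion, 13 had a peak within 1 kb. Itga3, the alpha chain of another laminin receptor, had 57.1 and 56.2, Itga6, the alpha chain paired with Itgb4, had 45.5 in each library, and Dag1, dystroglycan, had 56.0 and 58.3. Lama3, a laminin alpha chain, was lower, at 10.5 and 12.8, and Cd44, Col17a1 and Lamb2 had none. The median strongest peak was 33.8 in this list, and 33.2 over all protein-coding genes with a peak within 10 kb in replicate 1. The list of sort and marker genes had 6 of 10 within 1 kb. Its missing members were Ly6a and the 3 Ccl21 genes. Within 10 kb, Ly6a had 1 peak in the replicate 1 list only, and Ccl21b 1 in the replicate 2 list only. The Ccl21 genes are near-identical copies that may split or lose reads, which was not tested.

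Regulators of the thymic epithelium were open in 9 of 13 within 1 kb and 11 of 13 within 10 kb, beside 45.8% and 52.3% of all protein-coding genes. Foxn1, the master factor of thymic epithelial differentiation, had 16.9 and 25.6 at its start and 26.8 and 24.9 in an intron 12131 bp beyond it. The p63 gene Trp63, needed for stratified epithelia, had 12 replicated peaks. The strongest, 80558 bp before the nearest start, had 30.3 and 37.0, and the one at the start of its internal promoter, 62 bp before it, had 10.5 and 14.9. The promoter peaks of Pax9 (65.9 and 44.1) and Six4 (48.4 and 45.5) were higher than that of Foxn1 in both libraries. Pax1 and Tbx1 had no peak within 10 kb. Of 15 general epithelial regulators 13 had one, led by Grhl1 (61.2 and 90.3), Klf5 (65.3 and 78.2) and Klf4 (57.7 and 83.2), and Elf5 and Ovol1 had none.

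Signalling pathways were open in nearly every listed gene, as were the housekeeping genes (12 of 12 within 10 kb). Over all protein-coding genes the shares were 45.8% within 1 kb and 52.3% within 10 kb. In the NF-kB list 16 of 17 genes had a peak within 1 kb and 17 of 17 within 10 kb. Map3k14, the kinase of the non-canonical branch, was highest at 102.0 and 118.7, followed by Nfkbiz (75.2 and 81.0), Relb (71.7 and 75.4), Nfkbia (58.3 and 72.5) and Nfkb2 (56.0 and 63.3). The receptors Ltbr, for lymphotoxin (26.2 and 30.6), Tnfrsf11a, which encodes RANK (25.1 and 22.7), and Cd40 (23.3 and 35.5) were below these. So were genes that are not receptors, such as Traf6 (29.2 and 35.5), Nfkb1 (14.6 and 17.8) and Traf1 (11.1 and 18.5). Farther out, 86262 bp beyond its start, Tnfrsf11a had a site with 51.9 and 53.3. Of 10 AP-1 factors 9 had a peak within 10 kb and 7 within 1 kb. Jund (83.4 and 100.9), Junb (83.4 and 92.4), Fosl2 (60.1 and 91.7), Jun (76.4 and 73.9) and Atf3 (69.4 and 74.6) led, and the median strongest peak of this list was 60.1 and 73.9, beside 33.2 and 36.3 over all protein-coding genes. All 11 Notch genes had a peak within 10 kb, from Hey1 (66.5 and 73.9), a target gene, to the ligand Dll4 (14.6 and 17.1). All 14 genes of TGF-beta and BMP signalling had one too, with the receptor Tgfbr1 (83.4 and 98.8) above Bmp4 (14 and 12.8).

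Antigen presentation and mature-stage genes were also represented, beside 45.8% of all protein-coding genes within 1 kb and 52.3% within 10 kb. Of 10 MHC class II genes 8 had a peak within 1 kb. The values were 36.2 and 40.5 at H2-DMb2, 78.7 and 71.1 at Cd74, the invariant chain, and 27.4 and 23.5 at Ciita, their master regulator. A site 9921 bp before H2-DMb2, annotated as 5′ UTR and given to this gene only as the nearest start, had 88.0 and 89.6. Of 9 class I genes 7 had a peak within 1 kb, with 63.6 and 93.1 at H2-K1 and 62.4 and 73.9 at Tap1. In the list of the mature Aire stage 8 of 10 genes had a peak within 10 kb (4 of 10 with peaks above the median score of each library). Their median was 21 and 19.2, beside 33.2 and 36.3 over all protein-coding genes with a peak there. By mean signal the list was led by Pdcd1lg2 (39.1 and 33.4, at 7175 bp beyond its start) and Cd274 (34.4 and 37.7 at its start). Aire itself, the regulator of tissue antigens, had 1 peak at its start with 11.7 and 15.6. The Cd80 promoter had 12.8 and 13.5, and Cd86 and Ccl22 had none. Of 12 chemokine genes 9 had a peak within 10 kb, led by Ccl25 (53.6 and 71.1) and Ccl5 (49.6 and 58.3), and Ccl19 had none. Of 8 cortical genes 7 had one, and the thymoproteasome gene Psmb11 did not.

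**Figure D4:**
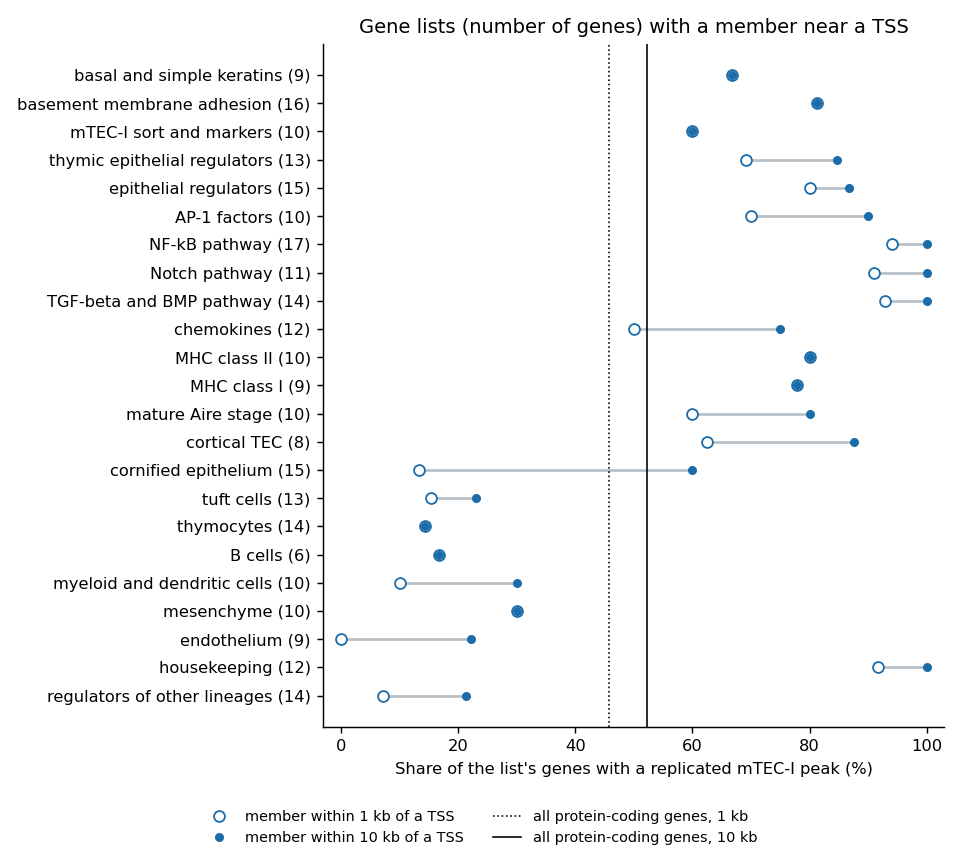
For each gene list (number of genes in brackets) the open circle gives the share of genes (%) with a replicated mTEC-I peak within 1 kb of a TSS and the filled circle the share within 10 kb, and the lines give the shares over all protein-coding genes (45.8% and 52.3%). The lists of tuft cells, thymocytes, B cells, myeloid cells, mesenchyme, endothelium and regulators of other lineages lie under both lines.

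The lists of other cell types and states gave the following counts, beside 45.8% of all protein-coding genes within 1 kb and 52.3% within 10 kb. Cornified epithelium had 9 of 15 genes with a peak within 10 kb (3 of 15 with peaks above the median score of each library) and 2 of 15 within 1 kb, and Ivl and Flg, which build the cornified envelope, had none. For tuft cells, the chemosensory epithelium, 3 of 13 genes had one (Dclk1, Pou2f3 and Plcb2). Among thymocyte genes 2 of 14 had one. Bcl11b, a T-lineage factor that some epithelia also express, had 40.2 and 34.8 near its start and 5 peaks in all, and Tcf7 had 18.1 and 19.2. The defining genes Cd3e, Cd3d, Cd3g, Cd4, Cd8a, Rag1, Lck and Ptprc had no replicated peak within 10 kb. Of 6 B cell genes only Ebf1 had one (22.2 and 17.1), and of 10 myeloid and dendritic genes Zbtb46 (39.7 and 49.1), Spi1 and Fcgr1 had one. Mesenchyme had 3 of 10 (Col1a1, Fbn1 and Pdgfra), endothelium 2 of 9 (Emcn and Plvap, and 0 with an overlap of at least 50% of both peaks) and regulators of other lineages 3 of 14 (Neurog2 and Myog among them). In the single lists of either library, mesenchyme had 5 of 10, and endothelium had 3 of 9 in replicate 1 and 4 of 9 in replicate 2. The regulators of other lineages had 4 of 14 and 7 of 14.

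Replicated peaks were spread over 14860 nearest genes, of which 7708 had 1 peak and 158 had 10 or more. Over all genes, the replicated peaks covered 43.0% of the merged peaks. With any distance allowed, Tbl1xr1, a subunit of the NCoR corepressor, had most, 22 of its 44 merged peaks. Of these, 21 were intergenic, reaching as far as 733306 bp from the start, and their signal in replicate 1 ran from 8.75 to 42.6 with a median of 16.3. Tns3, a tensin of focal adhesions, had 21 (10 in introns), from 8.75 to 60.1. Nav2, Plpp3, 9430078K24Rik and Gm31763 had 20 each, Pde4b and Zfp608 18, and Sik1, Slc7a11, Kazn and Fggy 17. The 10 genes with most peaks had medians of 13.7 to 21.6 in replicate 1, beside 19.2 over all replicated peaks, and their peaks spanned 162 to 802 kb.

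Within 10 kb of a start the ranking was another. Over all genes, 16379 replicated peaks lay within 10 kb of a start, beside 31125 merged peaks there. These totals stand beside the counts that follow. Plec, which encodes plectin, the linker between keratin filaments and hemidesmosomes, led with 7 of its 13 merged peaks, 6 of them within 1 kb of 1 of its several starts. They had 36.2 and 44.8, 38.5 and 35.5, 34.4 and 32.0, 22.7 and 26.3, 22.2 and 23.5, 20.4 and 19.2, and 16.3 and 13.5 in replicates 1 and 2. The upper 3 did not overlap the lower 4 in either library. Bcl3, an atypical member of the IkB family, had 6 of 7, all above 25 in both libraries: 55.4 and 60.4 at 9406 bp before the start, 42.6 and 43.4 in an intron 5159 bp beyond it, and 27.4 and 25.6 at the promoter. Gsn, which encodes the actin-severing protein gelsolin, had 6 of 12, and Synj2, a phosphoinositide phosphatase, 6 of 10. The satellite locus near Mir101c had 5, as did Gadd45b, Dgkz, C77080, Phc2, Limk2, Rarg, Ptp4a3 and 3110039I08Rik. Their merged peaks within 10 kb ranged from 5 each (Mir101c, Dgkz and Limk2) to 15 (C77080). Rarg encodes a retinoic acid receptor, and Limk2 a kinase of actin turnover.

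Peaks less than 12.5 kb apart were joined into clusters. This gave 21949 clusters, of which 15550 were single peaks (48.3% of all replicated peaks) and 393 held 5 or more. Of the 10 clusters of highest summed signal 8 held a satellite or rRNA copy. The other 2 were the Pisd-ps1 pseudogene cluster (5 peaks, 555.1 and 608.5 normalized tags summed) and a cluster of 12 peaks from Tmem115 to Sema3b (500.3 and 509.0). The following clusters are given as seen after leaving out those repeats. The cluster of replication-dependent histone genes around Hist1h4h had most peaks, 16 in 68.5 kb with 13 within 1 kb of a TSS, and summed to 452.5 and 468.6. The class I gene cluster from H2-K2 to Slc39a7 had 10 peaks (377.2 and 430.0), and that of H2-Aa, H2-Eb1 and H2-Eb2 had 8 (334.1 and 329.1). Csrp1, Phlda3 and Tnni1 shared 14 peaks in 75.1 kb, only 2 of them within 1 kb of a TSS. The immediate early gene Fos stood alone in its cluster, with 7 peaks in 42.8 kb and 1 at its promoter, summing to 316.1 and 315.0.

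At the Fos locus, picked after its values were seen, some distal sites stood above the promoter. Over all replicated peaks the promoter median was above the intergenic one. The promoter peak had 54.2 and 47.6. A site 18571 bp before it had 67.1 and 76.8, and one 12196 bp after it had 65.3 and 77.5, both above the promoter in each library. Both were annotated as CpG islands. A site 24116 bp after the start had 45.5 and 49.8. In all, 11 replicated peaks named Fos as nearest gene. Other clusters with a known signalling gene were those of Bcl3 (9 peaks, 313.2 and 304.2), Sik1 (9, 282.2 and 280.8) and Icam1 with its neighbours (10, 270.7 and 294.3). Among clusters of 5 or more peaks, 86 had no peak within 1 kb of a TSS. The highest of these lay near 1810026B05Rik (7 peaks, 259.5 and 280.8), near Wnt7b (7, 242.6 and 272.9), near 1700019O17Rik (5, 217.6 and 255.3) and near Gm31763 (9, 212.7 and 199.0). Another lay between Krt42 and Eif1, near the type I keratin genes (6, 158.2 and 192.0).

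The promoters of genes with a replicated peak differed in base composition and motifs from those without one. This was read from RefSeq windows of 300 bases, 250 before and 50 after the start, for 21263 windows of protein-coding genes that matched by gene ID. The sequence was not used by the rule. Windows of genes with a replicated peak within 1 kb had a mean GC content of 61.2% ± 9.38 (SD over 10356 windows) and a median of 21 CG dinucleotides, against 51.5% ± 11.4 and 5 in the 10907 others. The GC box GGGCGG was found in 65.1% of windows with a peak, in 28.2% of those without, and in 46.2% of all. The ETS motif CCGGAAG was found in 17.0%, 6.38% and 11.6%, the E-box CACGTG in 10.1%, 5.65% and 7.84%, and the CRE TGACGTCA in 3.21%, 1.31% and 2.23%. The AP-1 motif TGANTCA went the other way, with 4.94% of windows with a peak, 8.93% of those without and 6.99% of all. The other motifs searched were AACCGGTT for GRHL factors, which are epithelial, TGTTTAC for FOX, TGTGGTT for RUNX and GGAATG for TEAD factors, and the X-box site GTTGCC. GRHL matches were rare (0.222% with a peak, 0.138% without), and X-box matches were similar (12.9% and 12.3%). FOX, RUNX and TEAD matches were at 2.39%, 3.34% and 11.7% of windows with a peak and at 3.59%, 6.01% and 15.3% of those without. All motifs were counted on both strands, and windows of 1 gene with several starts overlap, so that no test was made. A match is a run of letters, not a bound site.

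The CCAAT box behaved unlike the GC box. CCAAT was as frequent in windows with a peak (38.2%) as in those without (38.2%), but its frequency followed the height of the peak. Genes with a peak within 1 kb, satellite and rRNA copies left out, were divided into 10 equal groups by the mean signal of their strongest such peak, a division chosen after the motif shares were seen. In group 1, the strongest (69.9 to 225 normalized tags), 54.6% of 1027 windows held CCAAT, in group 2 49.2%, in group 3 42.1%, and in groups 8 to 10 30.6% to 31.7%. The GC box went from 77.8% in the strongest group to 50.8% in the weakest, along with the mean GC content, from 64.2% to 58.6%. ETS matches were most frequent in groups 3 and 4 (21.5% each) and less so in the strongest (14.1%) and the weakest (8.68%). AP-1 matches were at 3.51% in the strongest group and 7.63% in the weakest. GC content and CG density move along this order, and their part in the motif shares was not tested.

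**Figure D5:**
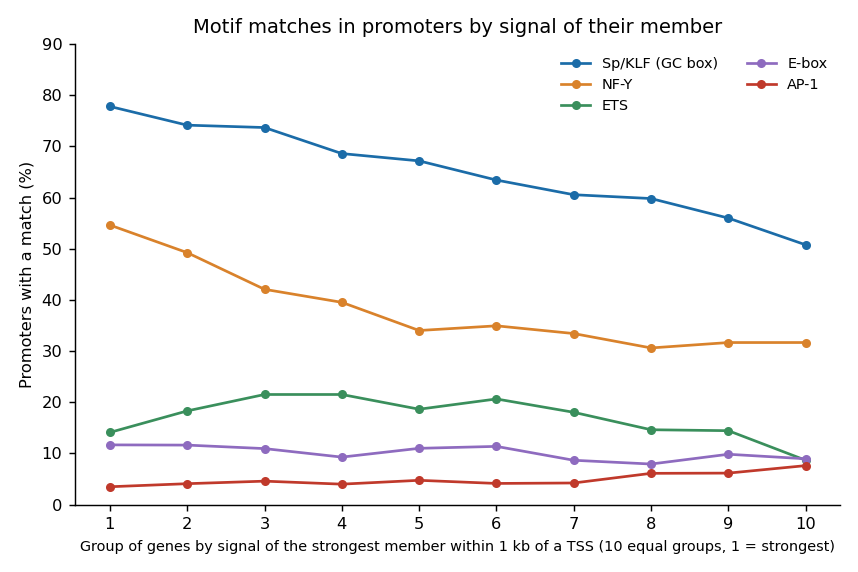
Points give the share (%) of RefSeq promoter windows with a match to each motif (both strands), for genes in 10 equal groups by the mean signal of their strongest replicated mTEC-I peak within 1 kb of a TSS (1, strongest; 10, weakest). CCAAT (the NF-Y line) goes from 54.6% to 31.7% and the GC box from 77.8% to 50.8%, while AP-1 goes from 3.51% to 7.63%.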

How the data were processed

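Open chromatin of 4 sorted populations, 2 libraries each, was analysed from the deposited files. The submitters' processing notes name HOMER, Picard 1.108, bcl2fastq 2.15.0.4 and the mm9 build. Not given in the sources used here were the aligner, how duplicates were handled and whether cut sites were shifted. The authors ran HOMER findPeaks on each library, per the file headers (factor style, fragment length 300 bp, false discovery rate 0.001, 4-fold over the surrounding 10000 bp). Each deposited peak carries a signal in tags per 10000000, a findPeaks score (used only for ranking) and a fold ratio over its surroundings. The authors' merged table of 74090 peaks gave signal per library, annotation and distance to the nearest TSS. Peaks within a list have a fixed width, 127 bp in replicate 1 and 140 bp in replicate 2.

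Replicated peaks were found by overlap in Python 3.11.15 with pandas 2.3.3, after tests on simulated peaks, and annotated from the merged peak with the largest overlap. The sites and gene lists were chosen with earlier results of these data known. No test was made, since the calls chose the sites. Named were the markers, the sort genes, the 15 strongest sites, the 10 strongest beyond 10 kb, the 10 genes with most sites at any distance and within 10 kb, the 10 strongest clusters, and up to 6 genes with and 4 without a site per list. Other genes and values were picked after they were seen. Some genes that this rule names are not reported here. No mm9 sequence was used. All 255 listed genes matched RefSeq. Overlap, ranking, distance and single libraries were varied.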

Additional observations from a re-analysis of the deposited data

How the results depend on the processing

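Of 82 recomputed values of 9 results, 63 stayed within 1.5 times (counts) or within 1 SD between the 2 libraries' own values (shares and the strongest value). The replicated share was 58.9% with an overlap of at least 50% of both peaks, and 81.9% read from replicate 2. Taking peaks above the median score of each list gave 17514 replicated peaks, 13340 clusters, 54.7% within 1 kb of a TSS, 24.6% intergenic, 20.6% intronic, and Sik1 as the gene with most peaks (13). Equal numbers of best-scored peaks gave 37.5% within 1 kb and 28.2% intronic. With either library left out, 31.2% to 33.3% lay within 1 kb, 34.8% to 35.9% were intergenic and 30.8% to 31.8% intronic, and the gene with most peaks had 29 (Tns3 and Xylt1 in replicate 1, Tbl1xr1 in replicate 2). Plec was the gene with most peaks within 1 kb (6) and, in a setting added after the data were seen, within 10 kb (7). Without satellite and rRNA copies, also added later, the strongest value was 283.0, near Limd1. Of 184 recomputed list counts 173 stayed within 1.5 times. The 11 others were counts of the lists of the mature Aire stage (4), cornified epithelium (3), regulators of other lineages (1) and endothelium (0) above the median score, endothelium at 50% overlap (0) and by centres (1), and, in single libraries, B cells (2), mesenchyme (5 and 5), endothelium (4) and regulators of other lineages (7). No paired analysis was possible because the results come from no test. The replicated share has no value with 1 library. At 1.17 and 1.42 per tag, peaks near 10 rest on few tags, so sites missing from the weaker part of the landscape may lie under the calling threshold.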

Other observations

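The replicated mTEC-I peaks were also looked up in the peak lists of the other populations, which differ in depth, so that no order between populations is read from them. Of the 32200 peaks, 10394 (32.3%) overlapped no peak of the 6 other lists, and 8.08% of these lay within 1 kb of a TSS. Another 6279 (19.5%) overlapped a peak in all 6, and 80.3% of these lay within 1 kb. Median signal in replicate 1 was 14 in the former and 43.1 in the latter. The 6 other lists held 10525 to 38108 peaks, and each alone overlapped 26.7% to 53.2% of the replicated peaks. A peak without overlap therefore need not be open in mTEC-I only.

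Outside promoters, 1280 replicated peaks were annotated as CpG islands (3.98%, beside 3.65% of merged peaks). Their medians were 25.7 and 28.4 normalized tags, above those of introns (15.7 and 16.4). Chromosome X held 534 replicated peaks (1.66%, beside 1.49% of merged peaks) and chromosome Y 1.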
